A study of Homo sapiens with 11 samples.

Results

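The CTCF summits found only in WT cells were 1564 of the 19044 summits of the WT list, or 8.21% (95% Wilson interval 7.83 to 8.61). They were chosen by distance: no summit of the ORC2 deletion list and none of the rescue list lay within 500 bp. They are called WT-only summits here, and the 17480 other summits of the WT list are called other WT summits. Intervals of shares and of differences cover counting error only. Summits are not replicates, and neighbouring summits are not independent.

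CTCF was mapped by CUT&RUN, in which a nuclease brought to an antibody releases the DNA around the bound protein, in HCT116 p53-/- cells, which come from a human colon carcinoma and lack p53. The ORC2 deletion cells were 1 clone made with CRISPR/Cas9 in that line. The rescue cells were clonally selected after ORC2 was returned on the plasmid pLHCXORC2. The WT cells were the HCT116 p53-/- cells themselves, so the loss of p53 was common to all 3 genotypes. Each genotype had 2 CTCF libraries and 2 IgG libraries, except that rescue IgG had 1, which made 11 libraries. The CTCF lists held 31112 summits in ORC2 deletion, 20810 in rescue and 19044 in WT cells. Each list stands for 1 genotype and was taken as the pool of its libraries, the depth of the libraries is unknown, and no difference below has a replicate check. A clone and its genotype cannot be told apart.

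CTCF is a zinc finger protein that binds a long DNA motif and halts the cohesin ring, which extrudes chromatin loops; it thereby bounds loops and contact domains, and many CTCF sites are held in most cell types. It also sits at a part of gene promoters. ORC2 is a subunit of the origin recognition complex, which marks DNA replication origins and loads the replicative helicase.

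Sequence was read in promoter windows of RefSeq on GRCh38.p14 (hg38), which run 250 bases before to 50 bases after each transcription start. The CTCF core was searched as AGGNGGC on both strands. A longer form asked in addition for CC starting 5 bases before that core, so every long match is also a core match. The 6 stretches below are shown because they are WT-only sites where the longer form lay near the summit. Their summit values, given further on, run from 1.32 to 6.10. Each has 30 bases, capitals mark the long match, and the strand is that of the printed letters.
RUFY4, chr2:218034903-218034932, minus strand: tccttctcgCCACCAGGGGGCacagggagg
WWC1, chr5:168291539-168291568, plus strand: gggactgtcCCACGAGGGGGCgcgtctcgg
LRRC71, chr1:156920557-156920586, minus strand: cacgcggggCCGACAGGGGGCgccgcaggg
EXD3 and NOXA1, chr9:137423362-137423391, plus strand: gggcgcctgCCGCCAGGGGGCgccgcgggg
NDUFV1, chr11:67606819-67606848, plus strand: tcagtcctcCCCCGAGGAGGCggggccgct
ZNF786, chr7:149090839-149090868, minus strand: cttcttcctCCCGCAGGAGGCgctgtagga

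The next stretch is shown for contrast. It comes from the promoter of CEP152, which had the highest value of the WT-only summits in promoter windows, and it holds the core (capitals) without the longer form.
CEP152, chr15:48811163-48811192, plus strand: agggcagagcgAGGAGGCagaagtctccgc

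Every summit carries a value, the −log10 q that MACS2 gave its peak in that list. WT-only summits had a median value of 2.59, with a middle range (25th to 75th percentile) of 2.05 to 4.07 and extremes of 1.31 and 36.5. Other WT summits had a median of 6.56 and a middle range of 4.32 to 10.1. A value of at least 5 was reached by 216 WT-only summits (13.8%) and by 11684 other WT summits (66.8%). At 10 these numbers were 16 (1.02%) and 4417 (25.3%), and at 20 they were 1 and 855. WT-only summits were thus mainly weak entries of the WT list. The values are a description with no test, because the same lists gave the values and the choice.

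When the WT list was divided into 10 classes of equal size by value, the lowest class held 772 WT-only summits, or 40.5% of its 1905 summits. The second class held 15.3%, the third 8.72% and the highest 0.262%, which was 5 of 1905. The lowest class alone held 49.4% of all WT-only summits. Of the 1000 highest WT values, 2 belonged to WT-only summits, and of the 5000 highest, 19 did. Many values were tied. The value 1.32 (1.32251) was shared by 280 WT-only summits (17.9%) and by 0.389% of the other WT summits, and the value 2.28 (2.2783) by 181 WT-only summits (11.6%) and by 0.858% of the others.

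**Figure D1:**
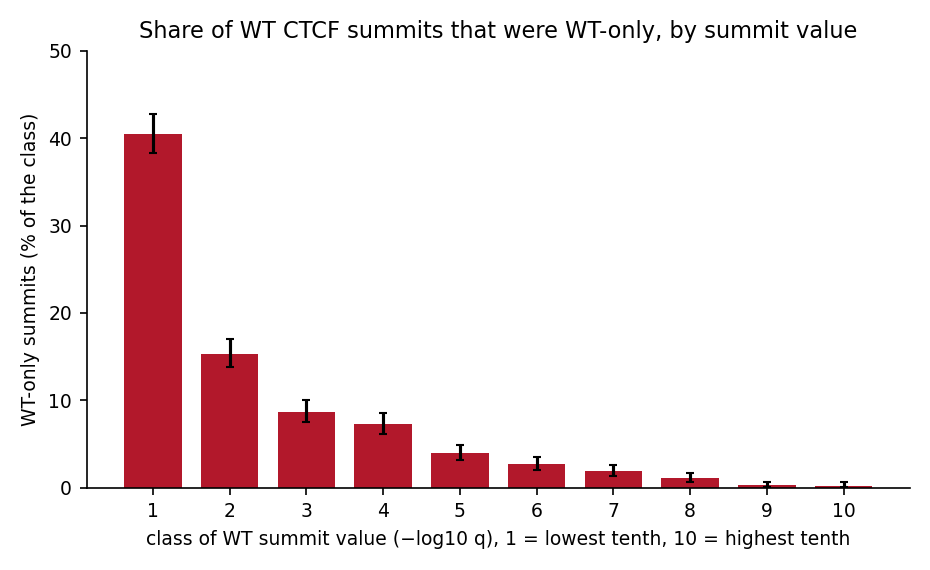
Share of WT summits that were WT-only (vertical axis, percent of the class) in 10 classes of the WT summit value (horizontal axis, −log10 q, lowest to highest). Bars are shares and lines 95% Wilson intervals. The share was 40.5% in the lowest class and 0.262% in the highest.

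The median distance of a WT-only summit to the nearest deletion or rescue summit was 22443 bp. That summit was in the deletion list for 1016 WT-only summits, in the rescue list for 545, and equally near in both for 3. A group of 91 lay within 1 kb of such a summit. Another 385 lay at 1 to 10 kb, 821 at 10 to 100 kb and 267 farther away. Of the 91, 39 also had a further WT summit within 1 kb, which was so for 9 of the 1473 beyond 1 kb. Just inside the threshold of the choice were 31 WT-only summits, at most 100 bp beyond the 500 bp, with a median value of 3.60. Just outside it were 47 other WT summits, less than 100 bp short of that distance, with a median value of 3.70.

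**Figure D2:**
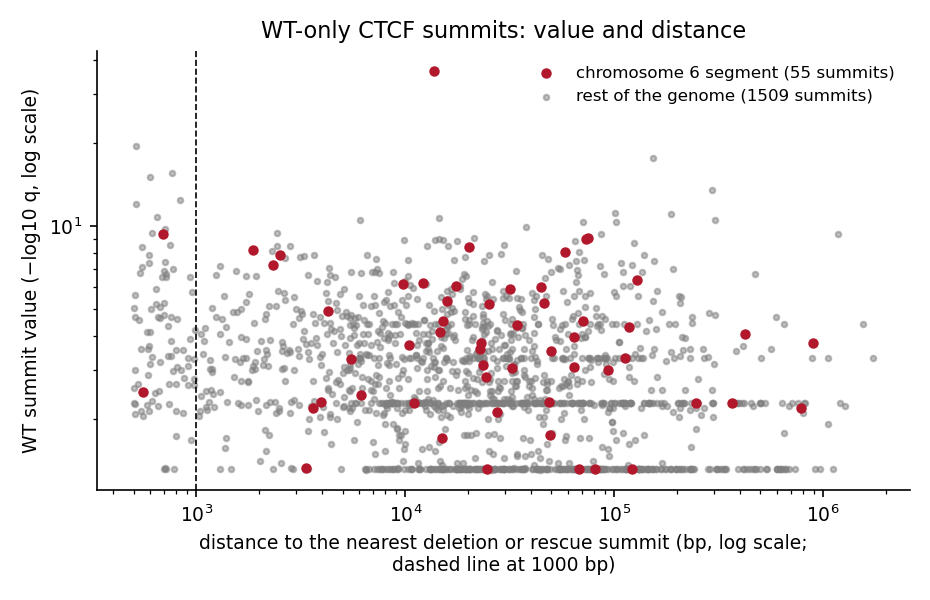
Each point is 1 WT-only summit, with the distance to the nearest deletion or rescue summit (bp, log scale) against its WT value (−log10 q, log scale). Red points are the 55 summits in the first 30 Mb of chromosome 6, and the dashed line stands at 1000 bp. Rows of points at the same height are the tied low values, and 91 points lie left of the line.

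The share of a list without a partner differed by list. Of the WT summits, 10.5% had no deletion summit and 23.8% had no rescue summit within 500 bp. Of the deletion summits, 30.6% had neither a rescue nor a WT summit within 500 bp, which was 9512 summits with a median value of 4.36 in their own list. Of the rescue summits, 8.36% had neither, which was 1739 summits with a median value of 3.18. The lists differ in length, so the shares are given as values with no test. With the deletion and rescue lists shortened to the WT length by their own values, the WT-only share was 16.2%.

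The authors' deposited table of CTCF regions listed as down had 364 regions, and 1 of them held a WT-only summit. The authors' deposited table of CTCF regions listed as up had 9603 regions and held 0. These labels do not name the genotypes compared. All but 1 of the WT-only summits thus lay outside the regions of the authors' deposited tables. The other WT summits in these regions were not counted, so this is not shown to be particular to WT-only summits. The IgG lists held 84 summits, and 1 WT-only summit and 23 other WT summits had one of them within 1 kb.

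Position relative to genes was not used in the choice of the summits. WT-only summits lay more often at transcription starts. Within 1 kb of a start lay 289 of 1495 WT-only summits (19.3%) and 1949 of 16634 other WT summits (11.7%). The difference was 7.61 points (95% Newcombe interval 5.63 to 9.75). Because WT-only summits were weaker, the shares were also compared within the 10 classes of value, where the difference was 8.45 points (Mantel-Haenszel, 6.18 to 10.7). With WT-only summits chosen at a distance of 100 bp instead, the difference was 3.30 points (2.19 to 4.44). Within 100 bp of a start lay 87 WT-only summits (5.82%) and 369 other WT summits (2.22%), a difference of 3.60 points (2.50 to 4.92). Starts on chromosome 8 were not used here, and summits there were left out of these counts.

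The WT-only summits at starts had a median value of 3.02 and a highest value of 10.4, and 27 of the 289 lay within 1 kb of a deletion or rescue summit. The same measure was taken in the summits found only in the other lists, which also lay at starts more often than the rest of their own lists. The difference was 2.74 points (1.92 to 3.57) for deletion-only summits and 1.99 points (0.433 to 3.71) for rescue-only summits. Starts lay within 1 kb of 13.6% of deletion-only summits, and the WT-only share was higher by 5.73 points (3.68 to 7.92). Starts lay within 1 kb of 12.3% of rescue-only summits, and the WT-only share was higher by 6.99 points (4.45 to 9.55). WT-only, deletion-only and rescue-only summits had median values of 2.59, 4.36 and 3.18, each in its own list. Values and list lengths were not matched in these 2 comparisons across lists.

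The ends of genes, meaning either limit of the gene in the annotation, lay within 1 kb of 393 WT-only summits (25.1%) and 3356 other WT summits (19.2%). The difference was 5.93 points (3.76 to 8.21), and 6.90 points (4.45 to 9.35) within classes of value. With WT-only summits chosen at 100 bp it was 2.95 points (1.67 to 4.26). Near an end but not near a start lay 117 WT-only summits (7.83%) and 1485 other WT summits (8.93%), with a difference of -1.10 points (-2.43 to 0.43). Inside genes lay 944 WT-only summits (60.4%) and 10375 other WT summits (59.4%), and the interval of this difference, -1.55 to 3.51 points, includes 0. Inside protein-coding genes lay 751 WT-only summits (48.0%) and 8231 other WT summits (47.1%), again with an interval that includes 0 (-1.65 to 3.52 points).

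WT-only summits were also more frequent at the opposite extreme, far from genes. More than 50 kb from any gene lay 82 WT-only summits (5.24%) and 421 other WT summits (2.41%), a difference of 2.83 points (1.81 to 4.07). Within classes of value the difference was 1.97 points (0.825 to 3.11). It was 1.13 points, with an interval that includes 0, among summits with a value of at least 5, and 1.29 points (0.751 to 1.87) with WT-only summits chosen at 100 bp. These 82 summits had a median value of 2.28 and lay at a median of 101306 bp from the nearest deletion or rescue summit. Deletion-only and rescue-only summits lay there in 3.32% and 3.51%. Inside protein-coding genes longer than 500 kb lay 108 WT-only summits (6.91%) and 707 other WT summits (4.04%), a difference of 2.86 points (1.67 to 4.25) and of 1.83 points (0.470 to 3.19) within classes.

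WT-only summits had another WT summit within 10 kb less often than the other WT summits did. Another WT summit lay within 10 kb of 296 WT-only summits (18.9%) and of 4427 other WT summits (25.3%), a difference of -6.40 points (-8.37 to -4.28), which was -2.44 points (-4.75 to -0.133) within classes. Within 1 kb it did so for 48 WT-only summits (3.07%) and 283 other WT summits (1.62%), a difference of 1.45 points (0.678 to 2.44). Of these 48, 39 were among the 91 WT-only summits within 1 kb of a deletion or rescue summit, close to the threshold of the choice. Of the 1473 farther away, 9 (0.611%) had another WT summit within 1 kb, against 1.62% of the other WT summits. Neighbour counts are bound up with the choice by distance. Of the 19044 WT summits, 13783 had a deletion or rescue summit within 100 bp. A WT summit more than 1 kb from both lists can thus have few WT neighbours within 1 kb, and no conclusion is drawn from the 0.611%.

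**Figure D3:**
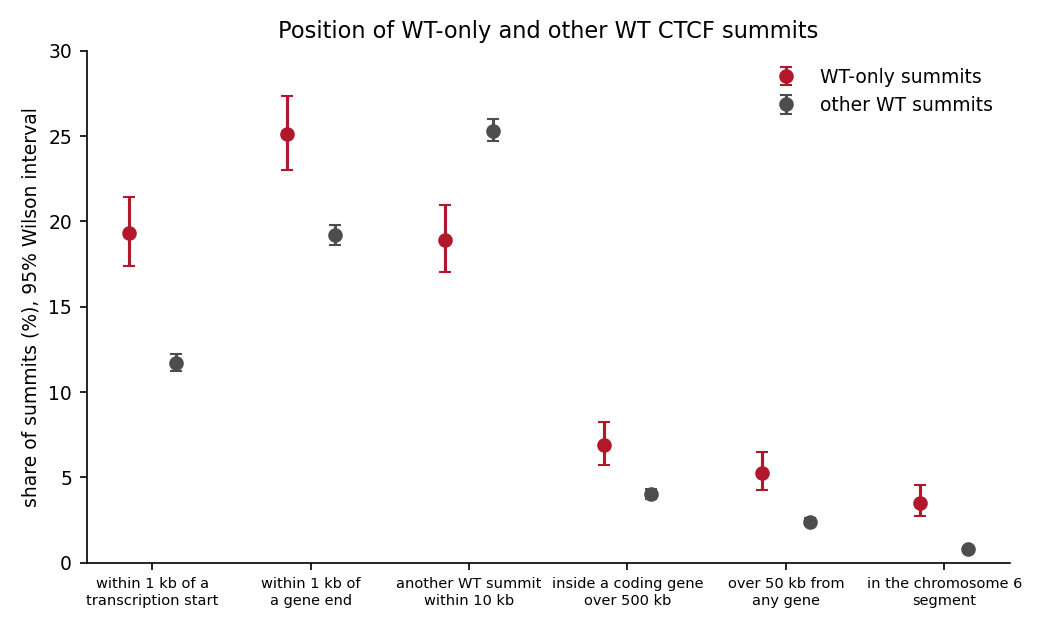
Shares of WT-only summits (red, left of each pair) and other WT summits (grey), in percent with 95% Wilson intervals, for 6 kinds of position. The chromosome 6 segment is its first 30 Mb. The WT-only share is higher in 5 kinds, such as 19.3% against 11.7% at transcription starts, and lower for a neighbouring WT summit.

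A total of 164 promoter windows, of 153 genes, held a WT-only summit, and 869 held another WT summit. Of the 164 windows, 132 belonged to protein-coding genes and 32 to lncRNA genes. They came from 130 WT-only summits with values of 1.32 to 8.90. Windows that share a start or face each other share their sequence.

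The core motif was about as frequent in both groups of windows, and the longer form was less frequent with WT-only summits. The core AGGNGGC was in 94 windows with a WT-only summit (57.3%) and in 467 with another WT summit (53.7%), a difference of 3.58 points (-4.75 to 11.6). It was in 35.9% of all 35116 promoter windows. The longer form was in 15 windows with a WT-only summit (9.15%) and in 188 with another WT summit (21.6%), a difference of -12.5 points (-17.0 to -6.49). It was in 4.64% of all promoter windows. Within classes of value the difference was -5.47 points, with an interval of -10.996 to 0.0495 that includes 0. Counted by summit, 11 of 130 WT-only summits (8.46%) and 166 of 763 other WT summits (21.8%) had the longer form. Within 10 classes of value made from these summits, the difference by summit was -6.49 points (-12.4 to -0.537). A match is a description and not a site of binding.

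The longer form was in 7.12% of the 604 promoter windows with a deletion-only summit and in 5.19% of the 77 with a rescue-only summit. The WT-only share of 9.15% differed from these by 2.03 points (-2.20 to 7.71) and by 3.95 points (-4.26 to 10.2), both with intervals that include 0. The core was less frequent there, in 41.7% and 36.4%, and the WT-only share was higher by 15.6 points (6.97 to 23.9) and 21.0 points (7.43 to 33.2). Values and list lengths were not matched in these comparisons across lists. The windows with a WT-only summit had a median GC content of 65.5%, and those with another WT summit 63.3%. A GC content of at least 60% was found in 79.3% of the windows with a WT-only summit and in 66.4% of those with another WT summit, a difference of 12.9 points (5.38 to 19.2). The part of GC content in the core counts was not tested.

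**Figure D4:**
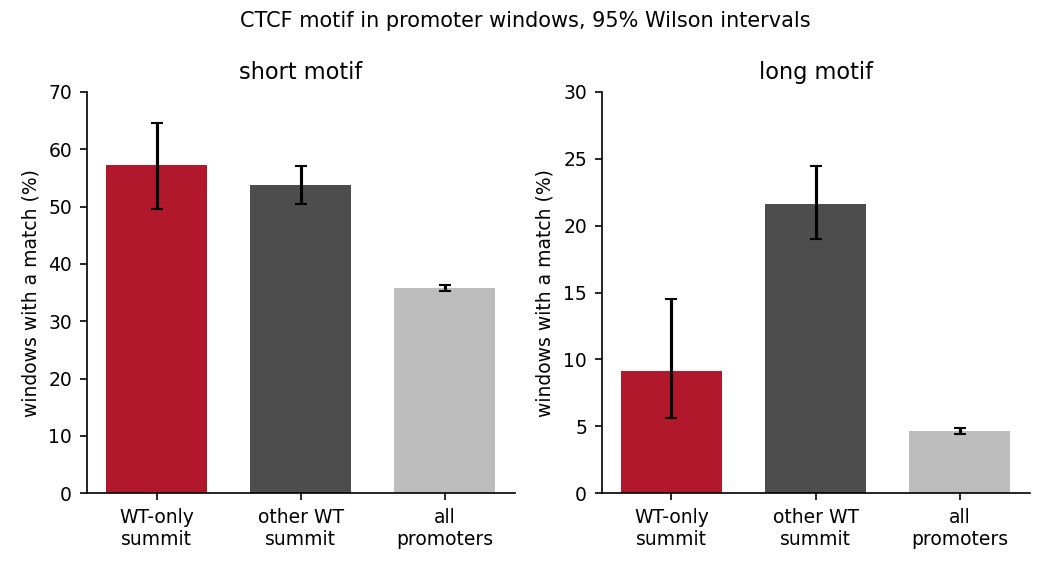
Percent of promoter windows (vertical axes) with the core AGGNGGC (left) and with the longer form (right), for windows with a WT-only summit, windows with another WT summit and all promoter windows; lines are 95% Wilson intervals. The core reaches 57.3% and 53.7% in the first groups, and the longer form 9.15% and 21.6%.

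The printed promoters had summit values of 1.32 to 8.90, and all but that of RUFY4 lay above the WT-only median of 2.59. EXD3 and NOXA1, which share 1 promoter region, had a summit of value 5.17, at 85 bp from the centre of the printed match. NOXA1 encodes an activator of an NADPH oxidase. WWC1, which encodes a scaffold protein of the Hippo pathway, had a summit of value 6.10 at 4 bp. NDUFV1, a subunit of mitochondrial complex I, had 3.82 at 16 bp, and LRRC71 had 4.15 at 64 bp. ZNF786, a zinc finger gene, had 3.25 at 65 bp. RUFY4, with a match 37 bp from its summit, had 1.32, one of the lowest values in the list. The summit at CEP152, a centriole duplication factor, had 8.90 and lay 6 bp from the printed core. Further promoters are named for their values and are not printed. STK4, which encodes the Hippo kinase MST1, had 7.83. CAV1, the main protein of caveolae, had 7.57. HAUS6, a subunit of the augmin complex of the spindle, had 7.02, and the ribosomal protein gene RPL15 had 6.76. The windows of STK4 and HAUS6 held no core match. Those of CAV1 and RPL15 held the core without the longer form.

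The 25 genes with the highest values were led by CDKAL1, which encodes a tRNA-modifying enzyme. Its summit at position 20550504 of chromosome 6 had a value of 36.5, rank 202 of the WT list, inside the gene. The nearest deletion summit was 13744 bp away and the nearest rescue summit 13719 bp. It was the only WT-only summit with a value of at least 20. Among the 25, 17 summits lay inside the named gene, and the rest were assigned to the nearest protein-coding gene within 50 kb.

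Of these 25 summits, 8 had both a deletion and a rescue summit within 1 kb, so they lay close to the threshold of the choice. In 4 of the 8, the WT list also had a further summit within 1 kb. LIPA, lysosomal acid lipase, had a value of 19.5, with the deletion summit at 516 bp and the rescue summit at 563 bp. BASP1, a protein of neuronal growth cones, was the gene nearest to a summit of value 15.5, with the deletion summit at 763 bp and the rescue summit at 853 bp. TRIL, a co-receptor of Toll-like receptors, stood for a value of 15.1, with the deletion summit at 599 bp and the rescue summit at 638 bp. TUBA1C, an alpha tubulin, had 12.4, with the deletion summit at 854 bp and the rescue summit at 837 bp. The remaining 4 of the 8 were B3GNT6, NTRK3, MACF1 and EGF, with values of 11.99, 10.8, 9.72 and 9.41. Of the 16 WT-only summits with a value of at least 10, 6 lay within 1 kb of a deletion or rescue summit, against 85 of the 1548 with lower values.

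The other 17 lay 2430 to 302558 bp from the nearest deletion or rescue summit. CELF4, an RNA-binding protein of neurons, had a value of 17.6, with the nearest deletion summit 153859 bp and the nearest rescue summit 153860 bp away. ADAMTSL1, a secreted matrix protein, had 11.01, with distances of 187712 bp to the deletion and 723434 bp to the rescue list. SORCS3, a sorting receptor of the sortilin family, had 10.5, with 302646 bp to the deletion and 302558 bp to the rescue list. SNX2, a sorting nexin of the retromer, had 10.4 at 78 bp from the gene's start, with 70758 bp to the deletion and 258689 bp to the rescue list. ZP3, a protein of the egg coat, had 10.7, with 14428 bp to the deletion and 123466 bp to the rescue list. TRA2B, a splicing factor, lay 45534 bp from its summit of value 10.5, and TTC29, a protein of the sperm tail, had 10.3. Values of 8.80 to 9.88 belonged to CA5A, TSPAN9, FOXO3B, ID1, FARS2, LPA, CEP152, ATP8B3 and RIPOR3. ID1 encodes an inhibitor of helix-loop-helix transcription factors, and LPA encodes apolipoprotein(a).

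A protein-coding gene held a WT-only summit in 703 cases. Of these genes 661 held 1, 38 held 2 and 4 held 3 or more. DLGAP1, a scaffold protein of synapses, held 5 WT-only summits of its 16 WT summits over 959.3 kb, where the deletion list had 12 summits and the rescue list 13. SORCS3 held 3 over 624.0 kb, which were all its WT summits, and the deletion and rescue lists had 0 there. TENM4, a teneurin of neuronal contacts, held 3 of 4, where the deletion list had 2 and the rescue list 1. ANK3, which anchors membrane proteins at the axon, held 3 of 10, where the deletion list had 9 and the rescue list 8.

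Gene lists were read against all WT summits with a protein-coding gene within 50 kb, of which 1227 of 16434, or 7.47%, were WT-only. A summit counted for the gene that held it, else for the nearest within 50 kb. Very long and fragile-site genes had 19 WT-only summits among 85 (22.4%, Wilson 14.8 to 32.3). Their examples were CDKAL1, WWOX at 7.47 and GPC5 at 6.26, and the GPC5 summit lay 49412 bp outside the gene. Genes of neurons, another lineage than the colorectal cells, had 13 of 68 (19.1%, 11.5 to 30.01), 5 of them in DLGAP1; CELF4 at 17.6 and CACNA1C, a calcium channel, at 4.99 were the highest. Both lists include CSMD1, RBFOX1, CNTNAP2 and NRXN3, and the WT-only summits of CSMD1 and RBFOX1 were counted in each. The WT summits of both lists were weak, with median values of 4.78 and 4.36 against 6.28 for all. The part of this in the shares was not tested. Zinc finger genes had 29 of 224 (12.9%, 9.17 to 18.0), with ZNF397 at 8.68 and ZNF507 at 7.73.

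The other lists had 0 to 4 WT-only summits each. The Wilson interval of each of their shares included the 7.47% of all WT summits near a protein-coding gene. None of these lists is thus placed above or below it. Cohesin and architectural factors had 4 of 40 (10.0%). They were ESCO2, a cohesin acetyltransferase, at 6.60, and MAZ, a zinc finger factor, at 5.77. The others were SMC2, a condensin subunit, at 4.42 and 35611 bp outside the gene, and NIPBL, the cohesin loader, at 3.02. Replication licensing and firing genes had 2 of 16 (12.5%). They were TICRR, an origin firing factor, at 6.04, and ORC5, a subunit of the origin recognition complex, at 5.38. The ORC5 summit lay 23542 bp outside the gene. Imprinted genes had 2 of 20 (10.0%), CDKN1C and DLK1. Olfactory receptor genes had 4 of 64 (6.25%), and HOX genes 1 of 21 (4.76%), HOXC10. The WNT pathway had 2 of 50 (4.0%), WNT11 and FZD6, with summits 37731 and 19409 bp outside these genes. Intestinal epithelium genes had 1 of 35 (2.86%), EPCAM, and haematopoietic genes had 1 of 9 (11.1%), PTPRC. Polycomb and heterochromatin factors had 0 of 31, mesenchymal genes 0 of 22 and clustered protocadherins 0 of 4. The upper Wilson limits of these 3 shares were 11.03%, 14.9% and 48.99%. These are counts with no test.

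WT-only summits were not spread evenly over the genome. The WT-only share of each of 23 chromosomes was set against the share elsewhere, with intervals widened for 23 comparisons, and 3 chromosomes lay above and 0 below. Chromosome 6 had 127 of 1045 (12.2%), 4.17 points above the other chromosomes (1.33 to 7.66). Chromosome X had 60 of 419 (14.3%), 6.24 points above (1.74 to 12.3). Chromosome 13 had 48 of 381 (12.6%), 4.48 points above (0.103 to 10.6). Within classes of value, the interval for chromosome X (-3.46 to 6.46) and that for chromosome 13 (-1.60 to 7.17) included 0, and that for chromosome 6 (1.29 to 6.97) did not. In that comparison chromosome 2 lay below the other chromosomes, by -1.98 points (-3.90 to -0.0737). The median WT value on chromosome X was 4.43.

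The excess on chromosome 6 lay in its first 30 Mb. Of the 193 WT summits there, 55 were WT-only (28.5%, Wilson 22.6 to 35.2), against 1509 of 18851 in the rest of the genome (8.005%). Without that segment, chromosome 6 stood 0.467 points above the other chromosomes (-2.10 to 3.91). The segment was chosen with earlier results of these data known, so its own counts are a description. All WT summits there had a median value of 6.37, against 6.18 in the rest of the genome. The deletion list had 189 summits in the segment, or 0.979 per WT summit, against 1.64 in the rest of the genome. The rescue list had 98, or 0.508 per WT summit, against 1.10 in the rest. WT summits without a rescue summit made up 59.1% in the segment and 23.4% in the rest, and those without a deletion summit 32.1% and 10.3%. DNA content was not measured in these files, and its part in this was not tested.

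The 55 summits had values of 1.32 to 36.5 with a median of 3.77, and 2 of them lay within 1 kb of a deletion or rescue summit. CDKAL1 held the highest value. A summit within 50 kb of the same gene had 9.34, FARS2, a mitochondrial tRNA synthetase, had 8.98, and SOX4, a transcription factor, had 8.17. BLOC1S5 had 8.02 and KIAA0319 had 7.23. EXOC2, a subunit of the exocyst, had 6.37 at position 593227, the first of the 55 on the chromosome.

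Among 274 bins of 10 Mb with at least 20 WT summits, 4 had intervals above the rest and 0 below, with intervals widened for 274 comparisons. The bin at 0 to 10 Mb of chromosome 6 had 23 of 67 (34.3%), with 64 deletion and 33 rescue summits. The bin at 20 to 30 Mb of chromosome 6 had 18 of 57 (31.6%), with 57 deletion and 31 rescue summits. The bin between them had 14 of 69 (20.3%), and its interval included 0. The bin at 50 to 60 Mb of chromosome X had 12 of 37 (32.4%), with 37 deletion and 22 rescue summits, and the bin at 30 to 40 Mb of chromosome 18 had 11 of 41 (26.8%), with 50 deletion and 32 rescue summits. For the bins on chromosomes X and 18 the interval within classes of value included 0. Within classes, 9 bins had intervals that excluded 0, with 2 above the rest, both on chromosome 6 and named above, and 7 below. Each of these 7 held 0 or 1 WT-only summits, too few for the Mantel-Haenszel interval, so no depletion is read from them. For 100 to 110 Mb of chromosome 5, with 0 of 28, it was -12.7 to -10.5. The Newcombe interval of that bin was -9.00 to 25.1 and included 0. The bin at 30 to 40 Mb of chromosome 18 holds CELF4 and ZNF397.

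**Figure D5:**
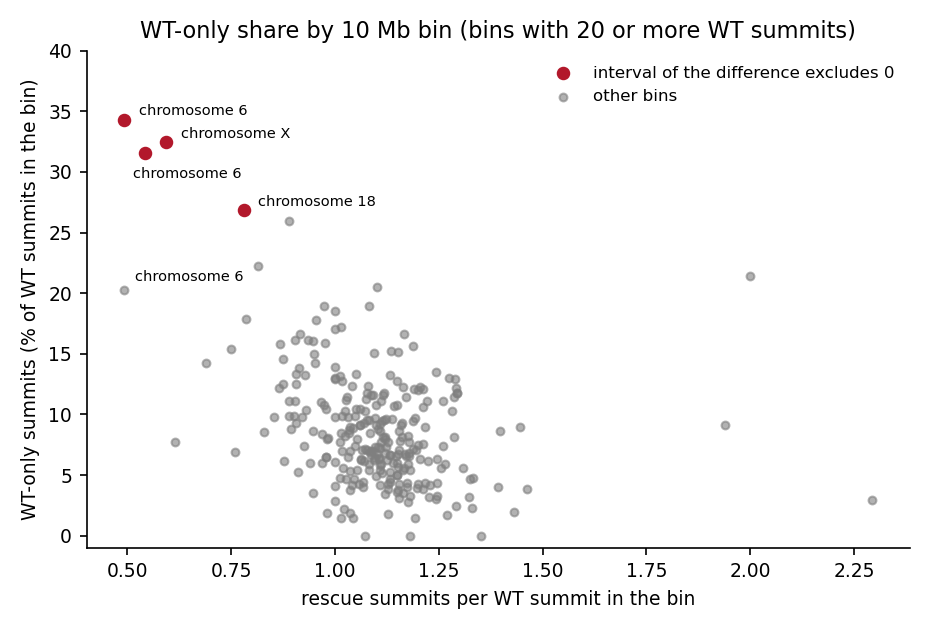
Each point is a 10 Mb bin with at least 20 WT summits, with rescue summits per WT summit (horizontal axis) against the WT-only share (vertical axis, percent of WT summits). Red bins had an interval that excluded 0. The middle bin of the chromosome 6 segment is a grey point and is also named. The red bins reach 26.8% to 34.3%; both axes use the rescue list, so their relation is partly built in.

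Some WT-only summits followed each other along the WT list. The runs are given as counts, and how many the WT-only share alone would give was not worked out. There were 26 runs of 3 or more consecutive WT summits that were all WT-only, and 4 of the runs lay in the chromosome 6 segment. The longest had 6 summits between 5214739 and 6222306 of chromosome 6, near LYRM4, FARS2, NRN1 and F13A1. Runs of 5 lay on chromosome 6 around SOX4, on chromosome 6 between 26223937 and 26596583 near the histone genes H3C6 and H4C8, and on chromosome X near CLCN5, CCNB3, DGKK and SHROOM4. A run of 4 lay on chromosome 7 and reached AUTS2. SORCS3 and TENM4 each formed a run of 3.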

How the data were processed

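CTCF and IgG CUT&RUN summit lists of 3 genotypes were used. Per the submitters' processing notes, the tools were Bowtie2 2.2.9, SAMtools 1.12, FastQC 0.11.5 and MACS2, on hg38. How peaks were called, whether duplicates were removed and whether IgG served as control were not given in the sources used here. Deposited by the authors was 1 base per peak with a −log10 q value; this has no scaling between lists and was used within its own list, except in 1 alternative with the same minimum in all lists.

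Summit positions were made 1-based, and lists were matched by distance. Genes came from a RefSeq table of GRCh38.p14 (59679 genes used, 113 on other scaffolds left out), and transcription starts, promoter sequences and hairpins from RefSeq tables of that assembly. Promoters of chromosome 8 were not used here, so 69 WT-only summits there are left out of the counts by transcription start and promoter. Sequence elsewhere was not used here.

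Shares have Wilson intervals and differences Newcombe intervals, or Mantel-Haenszel ones within 10 classes of the WT value. For the motif, the 10 classes were made from the compared promoter windows or promoter summits alone. Chromosome and bin intervals were widened by Bonferroni to 99.7826% and 99.9818%. No p-values are given. The members and gene lists were chosen with earlier results of these data known. A summit's gene was the protein-coding gene that held it, else the nearest within 50 kb. The text names the first 25 such genes by value, genes with 3 or more summits, and up to 4 genes per list; promoter genes, further genes of the chromosome 6 segment and genes of the runs were chosen after their values were seen. Alternatives were other distances, value minimums, list lengths, windows and motifs, leaving out summits near IgG or in the chromosome 6 segment, and 1 summit per 100 kb. Matching and intervals were tested on simulated data. The tools were pandas 2.3.3, NumPy 2.4.6, matplotlib 3.10.9 and SciPy 1.17.1 under Python 3.11.15.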

Additional observations from a re-analysis of the deposited data

How the results depend on the processing

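Of 66 alternatives, 44 kept their direction and whether the interval includes 0, or, for shares and counts, stayed close. The WT-only share was 27.6% with a distance of 100 bp, 7.73% with 1000 bp and 7.40% with 2000 bp. It was 1.82% of WT summits with a value of at least 5, 0.361% with at least 10, 4.99% with at least 5 in all lists, and 16.2% with the deletion and rescue lists shortened to the WT length. The differences inside genes were small and turned: -0.505 points within classes of value, -0.253 with 1 summit per 100 kb and -2.31 at values of at least 5, all 3 with the cause not tested. Inside protein-coding genes these were -1.73, -1.15 and -4.31 points, and with members by 100 bp the difference was 1.86 points, with an interval above 0. The difference beyond 50 kb from any gene was 1.13 points at values of at least 5. The motif difference turned with the longer form, to -12.5 points, -5.47 within classes and -13.3 by summit. The bins with intervals excluding 0 numbered 4, all above the rest. Within classes of value they numbered 9, with 2 above and 7 below. The 7 held 0 or 1 WT-only summits each, too few for that interval. The excess at transcription starts and gene ends kept its direction and an interval above 0 in each alternative run, but with members by 100 bp it was smaller, 3.30 points at starts and 2.95 at gene ends; beyond 50 kb from any gene it was 1.29. Of the alternatives, those for transcription starts, the motif by summit and within classes with the longer form, and chromosomes without the chromosome 6 segment were chosen after seeing the data. No paired analysis was possible because the single list of each genotype carries no replicate numbers; leaving out a replicate could not be run for the same reason. The depth of the libraries is unknown, so its part in any result was not tested.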

Other observations

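Hairpins of miRNAs near the other WT summits were not counted, so the following is not shown to be particular to WT-only summits. Within 1 kb of 6 of the 1564 WT-only summits lay a miRNA hairpin. They were MIR7155, with a summit value of 4.40 (−log10 q), MIR4482 at 3.70, MIR130B at 3.06, MIR3197 at 3.04, MIR662 at 2.28 and MIR4738 at 2.21.

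Some WT-only summits with high values had no protein-coding gene within 50 kb. One on chromosome 9 at 63434071 had a value of 13.5, with the nearest deletion summit 294959 bp and the nearest rescue summit 5073713 bp away. The nearest other WT summit was 5150417 bp away, so the WT list was also sparse there. One on chromosome 10 at 128530608 had 11.1, with the nearest deletion summit 101161 bp and the nearest rescue summit 266627 bp away. Its nearest other WT summit was 99126 bp away.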
